A study of Rattus norvegicus with 23 samples.

Results

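The myosin-binding protein C and H genes of the rat were followed over 6 regions of the heart and great vessels. The family was taken as 5 genes, *Mybphl*, *Mybph*, *Mybpc1*, *Mybpc2* and *Mybpc3*, and a probe was counted as a member when the accession given with it on the array belongs to one of them. Of the 5 genes, 4 had a probe, among 16544 genes with a probe in all, and these 4 had a log2 signal above 4 on at least 1 array, as did 15875 genes. *Mybphl* was read by 2 probes and the others by 1 each, and *Mybpc2* had no matched probe and was not analysed here. *Mybphl* and *Mybpc1* were selected on their measured levels over the regions in these same arrays, so their values are described without a test.

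The samples were total RNA from male Wistar rats of 8 to 11 weeks, for which the labels name no drug, transgene or deletion, hybridized to 23 one-color Agilent arrays. There were 4 arrays each of left atrium next to the pulmonary vein (LA), left ventricle (LV), sinoatrial node region (SA), pulmonary vein (PV) and pulmonary artery (PA), and 3 of the right ventricular free wall (RV). Each SA sample pooled tissue of 2 rats. The methods name fewer rats in all than there are arrays, and state that an LV mass was cut into several pieces that served as samples. Arrays of different regions, and LV arrays among themselves, may therefore share animals. Which did so is not given in the sources used here, and since the arrays were tested as separate samples, p-values may be too small and measure only the spread between these samples. LV and RV together are called V. A level is the log2 of the normalized signal plus 1, and differences are on that scale unless given as folds.

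Myosin-binding proteins sit on the thick filament of the sarcomere, where the C forms bind myosin near its heads and link it to titin and actin, and so tune how fast and how strongly the filaments engage. *Mybpc3* encodes the cardiac form, whose phosphorylation follows adrenergic drive and whose mutation is a common cause of hypertrophic cardiomyopathy. *Mybpc1* and *Mybpc2* encode the slow and fast skeletal forms, *Mybph* encodes the shorter H protein known from fast skeletal muscle, and *Mybphl* encodes an H-like protein known from atrial muscle.

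Marker lists were read in each labelled tissue. The mean log2 level of 7 atrial myocyte markers was 15.00 to 15.47 on LA, SA and PV arrays and 11.60 to 12.60 on V arrays, that of 5 ventricular markers was 14.39 to 14.71 on V arrays and 10.69 to 11.64 on LA, SA and PV arrays, and that of 5 smooth muscle markers was 15.56 to 15.85 in PA and at most 12.70 elsewhere. LA, SA and PV, alike in the atrial list, are called atrial-type regions here. The list of 6 sinoatrial pacemaker markers averaged 8.79 to 9.03 in SA, 8.02 to 8.68 in PV, 7.66 to 7.75 in PA and at most 7.30 elsewhere, and its transcription factor *Isl1* was well above background on 1 of 4 SA arrays. Single markers went against their lists. In the pacemaker list *Tbx18* averaged 11.90 in PA and 10.36 in LA against 9.86 in SA, and *Isl1* 8.37 in PA against 3.48 in SA. In the ventricular list *Hey2* averaged 8.22 in PA and 5.37 in PV against 5.36 in LV and 5.77 in RV. The connexin *Gja5* of the atrial list was lower in LA than in V (-1.81, SE 0.17, limma adjusted p = 1.02e-07), and *Myl4* of the atrial list (-0.05, SE 0.28, limma adjusted p = 0.904) and *Myh7* of the ventricular list (-0.32, SE 0.20, limma adjusted p = 0.234) did not pass the test. In PA the ventricular list averaged 8.21 to 10.26 and the atrial list 7.94 to 10.46. Between 58.7% and 79.8% of probes were well above background on an array, and this share followed the row of the array on the slide, with 72.7% to 79.8% in row 1 and 58.7% to 69.5% in row 2. Each region had arrays in both rows, but not evenly, with 3 of 4 LA arrays in row 1 and 3 of 4 SA and 3 of 4 PV arrays in row 2.

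Both of the tested members differed over the 6 regions, *Mybph* with F = 69.9 (limma, adjusted p = 1.95e-10) and *Mybpc3* with F = 65.1 (limma, adjusted p = 3.37e-10), where 65.4% of all genes tested did so. *Mybphl* was high in PV, SA and LA and low in V and PA. *Mybph* followed the same division at a smaller size. *Mybpc1* was measured in PV and LA and was not well above background in SA or V. *Mybpc3* was within 0.47 log2 units over all arrays of the 5 heart regions and low in PA. In whole tissue, fewer cells of a type and less RNA per cell cannot be told apart.

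**Figure D1:**
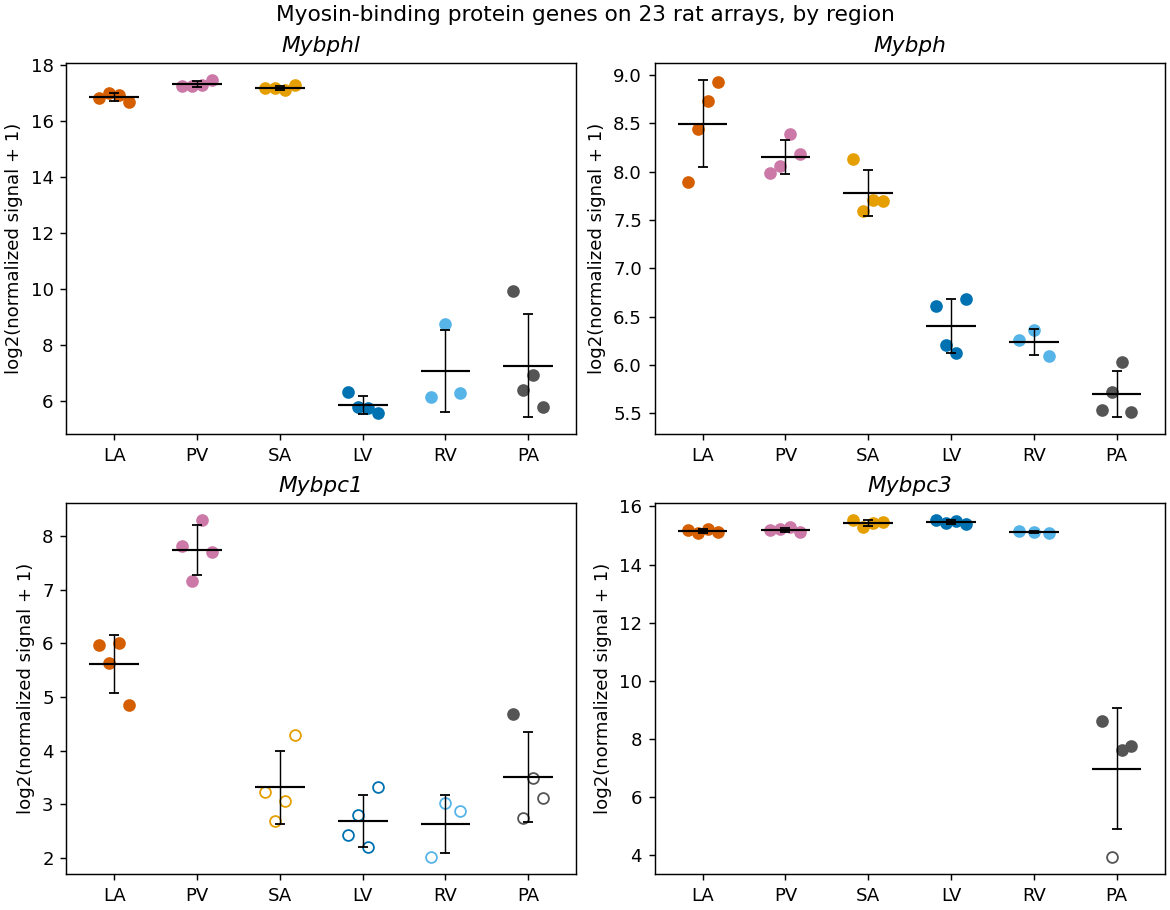
Log2 normalized signal of *Mybphl*, *Mybph*, *Mybpc1* and *Mybpc3* on each of the 23 arrays by region. Filled circles are arrays on which the gene was well above background, open circles those on which it was not, and the line and bar give the mean and SD of the 3 or 4 arrays. *Mybphl* lies between 16.68 and 17.47 on the LA, PV and SA arrays and between 5.59 and 9.95 elsewhere, *Mybpc1* is open on every SA, LV and RV array, and *Mybpc3* drops only in PA.

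*Mybphl*, the H-like member known from atrial muscle, was bright on every atrial-type array. Its level was 16.82, 17.02, 16.92 and 16.68 in LA. It was 17.18, 17.19, 17.10 and 17.28 in SA. It was 17.25, 17.26, 17.29 and 17.47 in PV. The 4 SA arrays lay above the 4 LA arrays without overlap, whereas SA and PV overlapped. The means of the 4 arrays with their SD were 17.32 ± 0.10 for PV, 17.19 ± 0.07 for SA and 16.86 ± 0.15 for LA. SA exceeded LA by 0.33 and PV exceeded LA by 0.46, and quantile normalization between arrays brought the LA minus SA difference from -0.33 to -0.08.

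On ventricular arrays *Mybphl* was 6.33, 5.80, 5.77 and 5.59 in LV and 6.17, 8.76 and 6.30 in RV, all of them well above background on the brighter probe. RV replicate 2 stood apart from the other 6 V arrays, whose mean was 5.99 ± 0.31 (SD, n = 6) and whose highest value was 6.33. LA exceeded V, taken as the mean of the LV and RV means, by 10.39, a 1340-fold higher signal. SA exceeded V by 10.71 (1680-fold) and PV by 10.84 (1840-fold). These folds take the brighter of the gene's 2 probes on each array, which was A_64_P007163 on 3 of 4 LV arrays and A_44_P1103052 on all RV, LA, SA and PV arrays, so they set different probes against each other in part. On A_64_P007163 alone LA exceeded V by 8.69 (414-fold), SA by 9.08 (542-fold) and PV by 9.0 (513-fold). On A_44_P1103052 alone the differences were 10.80 (1780-fold), 11.12 (2230-fold) and 11.25 (2440-fold). That probe was not well above background on LV replicate 4, and with this array raised to its lowest signal well above background the differences were 10.56 (1510-fold), 10.89 (1890-fold) and 11.02 (2070-fold), an alternative chosen after seeing the data. With normexp background correction, which here also added 50 to each signal, the 3 differences for LA, SA and PV were 9.47, 9.77 and 9.91. The parts of the correction and of the added 50 in this were not told apart. Without RV replicate 2 the LA difference was 10.81, and within the single rows and slides that held both regions it was 9.79 to 10.67. The LV minus RV difference of -1.21, taken on the brighter probe, was -0.37 without RV replicate 2. On A_64_P007163 alone LV (5.56 to 6.33) and RV (6.07 to 6.99) overlapped. On A_44_P1103052 alone they did not, with LV at 3.39 to 5.88 and RV at 6.17 to 8.76. The difference thus depended on the probe as well as on RV replicate 2.

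*Mybphl* in PA was 9.95, 6.39, 6.93 and 5.81. PA replicate 1 was the high array there, and of the other 3, 1 lay among the 6 V arrays other than RV replicate 2 and 2 lay above them. The atrial marker *Sln*, which encodes sarcolipin, an inhibitor of the sarcoplasmic calcium pump, was also highest on the same arrays, at 10.43 on PA replicate 1 against 7.38, 7.61 and 5.88, and at 10.33 on RV replicate 2 against 7.84 and 8.58. The summed signal of the 7 atrial markers was 34200 on PA replicate 1 and 5070 to 6540 on the other PA arrays. On RV replicate 2 the mean log2 level of these markers was 12.14, against 11.60 and 11.69 on the other RV arrays, and that of the natriuretic peptide gene *Nppa* was 11.47 against 10.37 and 10.05. The regulatory light chain *Myl7* was 14.55 on PA replicate 1 and at most 11.37 on the others, and 15.24 on RV replicate 2 against 13.66 and 14.87. Of the 7 atrial markers, RV replicate 2 was the highest RV array in 3 and the lowest in 3, among the latter *Myl4* at 17.26 against 17.42 and 17.35. The part of atrial myocytes in these 2 arrays was not tested.

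**Figure D2:**
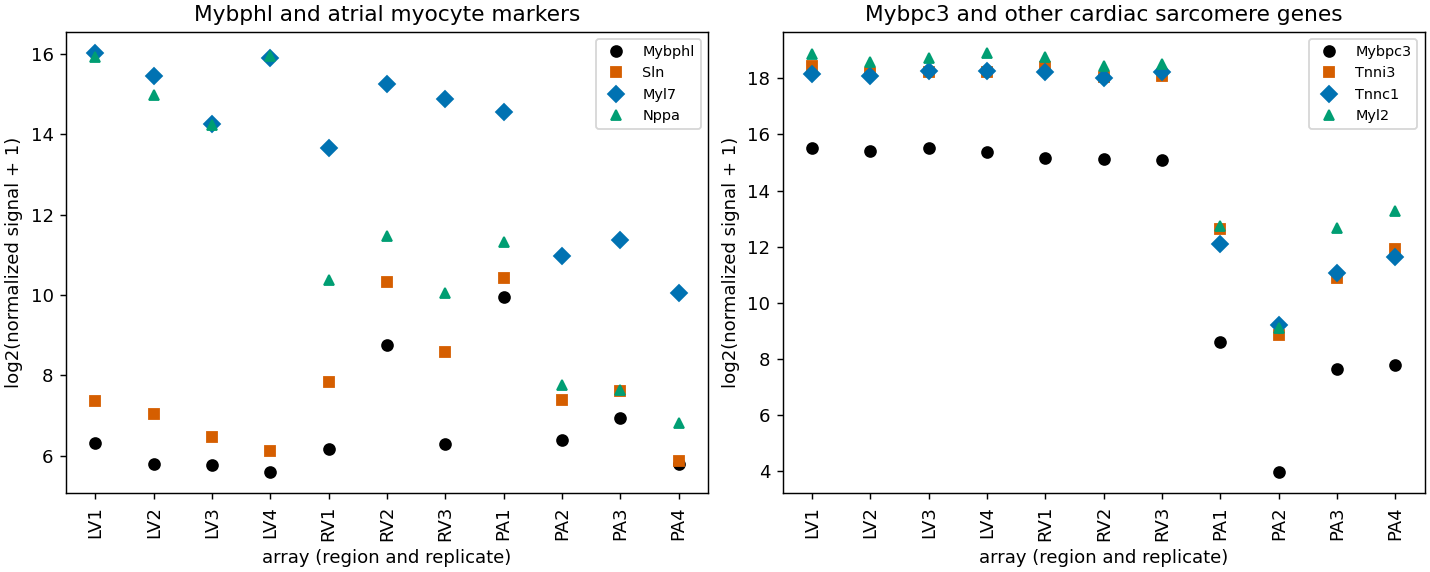
Log2 normalized signals on the 4 LV, 3 RV and 4 PA arrays, with *Mybphl* beside the atrial markers *Sln*, *Myl7* and *Nppa* on the left (3 of the 7 in that list), and *Mybpc3* beside *Tnni3*, *Tnnc1* and *Myl2* on the right. *Mybphl* and *Sln* peak together on RV replicate 2 and PA replicate 1, and *Mybpc3* is lowest on PA replicate 2, as are the other 3 sarcomere genes.

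The 2 *Mybphl* probes gave the same division of the regions. The probe named A_64_P007163 averaged 14.82 ± 0.06 in LA, 15.21 ± 0.11 in SA and 15.13 ± 0.12 in PV (SD, n = 4 each). Its low levels were 5.82 ± 0.36 in LV and 6.06 ± 1.37 in PA (SD, n = 4 each) and 6.44 ± 0.48 in RV (SD, n = 3). The probe A_44_P1103052 was the brighter one on all LA, SA and PV arrays, by 1.81 to 2.29, and set the gene's value there. On V arrays the difference between the probes ran from -2.19 on LV replicate 4 to 1.77 on RV replicate 2, so no single probe set the ventricular level. A_44_P1103052 was not well above background on LV replicate 4, so the size of that difference is not exact. On RV replicate 2 and PA replicate 1 the gap of 1.77 and 2.15 was close to that of the atrial-type arrays.

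**Figure D3:**
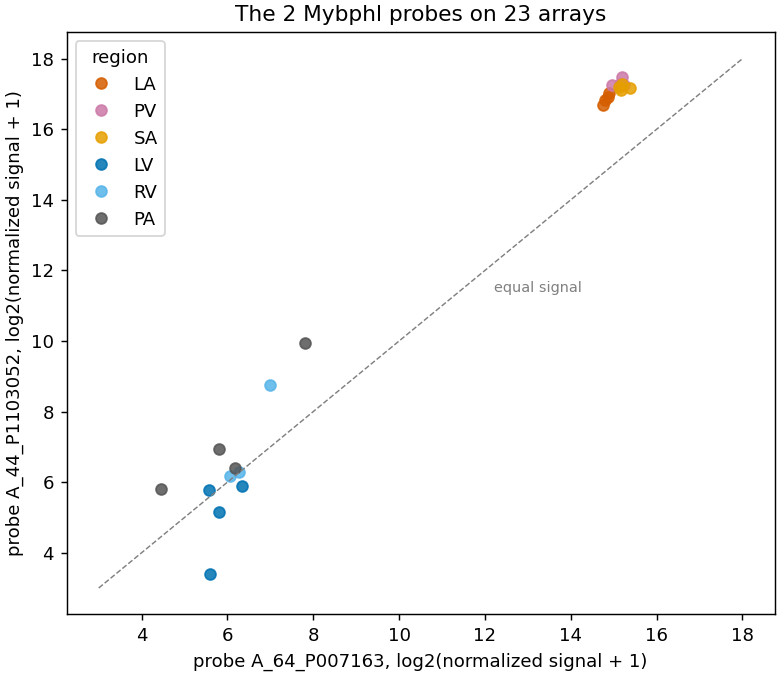
The 2 *Mybphl* probes plotted against each other as log2 normalized signals, 1 point per array, colored by region, with a dashed line of equal signal. The LA, PV and SA arrays form a tight group about 2 log2 units above the line, while the V and PA arrays scatter around or above it at low signal.

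*Mybph*, the H protein of fast skeletal muscle, was well above background on all 23 arrays and was higher in atrial-type tissue. Its level was 7.89, 8.44, 8.73 and 8.93 in LA, 7.99, 8.06, 8.39 and 8.18 in PV and 8.13, 7.59, 7.71 and 7.70 in SA. It was 6.61, 6.21, 6.12 and 6.68 in LV, 6.26, 6.36 and 6.09 in RV and 5.53, 5.72, 6.03 and 5.51 in PA. No LA, PV or SA array overlapped the V arrays, and no PA array overlapped them either.

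Against V, *Mybph* rose by 2.18 in LA (SE 0.17, 4.52-fold, limma adjusted p = 7.54e-09), where 36.0% of all genes tested differed in either direction and 17.2% were higher. In PV it rose by 1.83 (SE 0.17, 3.57-fold, limma adjusted p = 8.36e-08, background 34.6%). In SA it rose by 1.46 (SE 0.17, 2.76-fold, limma adjusted p = 2.01e-06, background 28.7%). These 3 comparisons share the 7 V arrays. Within rows of the slides the differences were 2.03 to 2.25 for LA, 1.78 to 1.79 for PV and 1.32 to 1.44 for SA, and within slides that for LA was 1.95 to 2.68.

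Within the atrial-type regions *Mybph* was higher in LA than in SA by 0.71 (SE 0.19, 1.64-fold, limma adjusted p = 0.0158), where 15.5% of genes differed, although LA replicate 1 at 7.89 lay below SA replicate 1 at 8.13. Within rows the difference was 0.59 to 0.92 and within slides 0.46 to 1.22. This call was lost without LA replicate 3 (0.64, limma adjusted p = 0.0532), without LA replicate 4 (0.57, limma adjusted p = 0.0553) and when only the LA and SA arrays were fitted (limma adjusted p = 0.0890). PV minus LA was -0.34 with a 95% confidence interval of -0.75 to 0.06 (limma adjusted p = 0.289), which without LA replicate 1 became -0.55 (limma adjusted p = 0.0478). PV minus SA was 0.37 (-0.03 to 0.78, limma adjusted p = 0.365) and LV minus RV was 0.17 (-0.27 to 0.61, limma adjusted p = 0.866). PA minus the mean of the 5 heart regions was -1.72 (3.29-fold lower, SE 0.15, limma adjusted p = 4.17e-09), where 60.0% of all genes differed, and within rows it was -1.84 to -1.56.

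*Mybpc1*, the slow skeletal form, was measured in PV and LA and hardly elsewhere. Its level was 7.81, 7.16, 8.31 and 7.70 in PV and 5.98, 5.64, 6.0 and 4.85 in LA, well above background on all 8 of these arrays, and the lowest PV array lay above the highest LA array. It was 3.23, 2.69, 3.07 and 4.29 in SA, 2.44, 2.80, 2.20 and 3.32 in LV and 2.02, 3.02 and 2.88 in RV, not well above background on any of these arrays. In PA it was 4.68, 2.74, 3.49 and 3.13, and PA replicate 1 was the only one well above background. The values of SA, LV, RV and the other PA arrays are bounds and have no order.

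PV exceeded LA in *Mybpc1* by 2.13, a 4.37-fold higher signal, and by 1.55 and 2.30 within the 2 rows and 1.49 to 3.46 within slides. Set against the lowest signal well above background on each dim array, *Mybpc1* was at least 7.41-fold higher in PV than in SA, at least 9.55-fold higher in PV than in V, at least 1.69-fold higher in LA than in SA and at least 2.18-fold higher in LA than in V. The measured means of 7.75 ± 0.47 in PV and 5.62 ± 0.54 in LA (SD, n = 4 each) stood beside 3.32 ± 0.68 in SA (SD, n = 4) and 2.67 ± 0.47 in V (SD, n = 7). Background correction by normexp, which here also added 50 to each signal, brought the PV minus LA difference in *Mybpc1* to 1.43. PV minus V became 2.05, PV minus SA 1.83, LA minus V 0.61 and LA minus SA 0.40. The 4 bounds above are not met under that setting. The added 50 by itself compresses signals this low, so the setting cannot show whether the background model alone would do so. For the other 3 members PV minus SA was 0.13 (*Mybphl*), 0.37 (*Mybph*) and -0.23 (*Mybpc3*).

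Other genes of skeletal muscle were read beside *Mybpc1*. Of a list of 22 skeletal muscle genes, 19 were tested. Between PV and SA none of the 19 passed the test in limma (1 had an unadjusted p under 0.05), where 3.67% of all genes did. Between PV and LA 2 were higher in PV and none lower, where 13.7% of all genes differed and 7.13% were higher, namely *Tnnt1*, the slow skeletal troponin T, by 1.53 (SE 0.27, limma adjusted p = 0.000679) and the light chain *Myl1* by 1.12 (SE 0.36, limma adjusted p = 0.0429). With the array row as a block 1 of the 19 passed, where 11.7% of all genes did, and without the PA arrays 1 passed, where 14.4% did. *Tnnt1* was 11.42 ± 0.60 in PV, 11.59 ± 0.42 in SA and 9.89 ± 0.32 in LA (SD, n = 4 each), so SA stood with PV for this gene. Against V, 2 of the 19 were higher and 3 lower in LA, where 36.0% of all genes differed, led by *Atp2a1*, the fast skeletal calcium pump, at 3.13 (SE 0.13, limma adjusted p = 7.95e-13) and by the troponin *Tnnc2* at -0.81 (SE 0.14, limma adjusted p = 0.000145). The list median was -0.01. On all 23 arrays 12 of the 19 were well above background, among them *Casq1*, *Tnni2*, *Tnnt3*, *Pvalb*, *Chrna1*, *Myog* and the myosins *Myh3* and *Myh8*. *Myh8*, at 16.67 to 17.07 as a mean of the heart regions, is a close paralog of the cardiac myosins, so its signal is uncertain. Whether its probe also reads those myosins was not tested. The skeletal myosin *Myh2* and the calcium channel subunit *Cacna1s* were not well above background on any array. *Myh1* and the regulator *Myf6* were so on at most 1 array of a region, and *Myod1* on at most 2.

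Neuron markers were also read beside *Mybpc1* in PV. The mean log2 level of the 4 of 6 autonomic neuron markers with a probe was 7.88 to 10.99 in PV, 6.54 to 7.10 in SA and 6.34 to 6.73 in LA, and in PA it was 6.79 to 8.65, so PV and PA overlapped. In summed signal the list ran from 1300 to 10500 in PV, 748 to 916 in SA and 529 to 666 in LA. Within PV, replicate 3 had the highest *Mybpc1* at 8.31 and the lowest neuron mean at 7.88. LA, with *Mybpc1* well above background on 4 of 4 arrays, reached no higher than SA in this list. Among markers of Schwann cells, which sheathe such nerves, *Sox10* was 9.99 to 10.48 in PV, 9.47 to 9.80 in SA, 8.88 to 9.50 in LA and 7.90 to 8.65 in PA, and *S100b* was 9.75 to 10.25 in PV, 8.11 to 8.53 in SA, 7.17 to 8.36 in LA and 9.80 to 10.32 in PA. PV lay above SA and LA in both genes without overlap. Other lists differed between PV and LA as well. Smooth muscle markers averaged 12.08 to 12.70 in PV, 11.43 to 12.10 in SA and 9.44 to 9.96 in LA, and 4 adipocyte markers averaged 10.47 to 12.17 in PV, 11.30 to 12.23 in SA and 9.23 to 10.02 in LA. *Cidea* of the adipocyte list went the other way, at 12.68 in PV and 12.89 in LA. In summed signal that list overlapped, at 17500 to 23500 in PV and 12000 to 18200 in LA. The part of neurons, Schwann cells, smooth muscle and adipocytes in the PV signal was not tested.

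**Figure D4:**
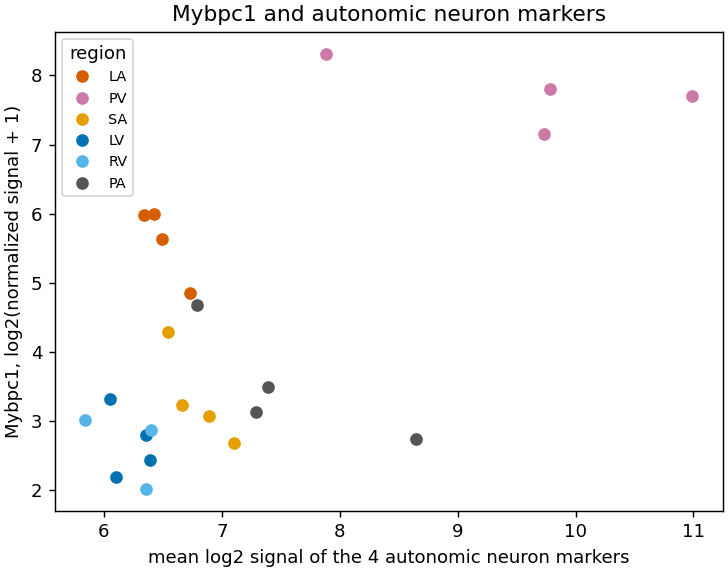
*Mybpc1* log2 normalized signal on each array against the mean log2 signal of the 4 autonomic neuron markers with a probe, colored by region. PV arrays are highest in *Mybpc1*, at 7.16 to 8.31, over a marker range of 7.88 to 10.99, while LA arrays reach 4.85 to 6.0 in *Mybpc1* at marker levels that overlap those of LV and RV.

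*Mybpc3*, the cardiac C protein, was bright on every heart array. It was 15.52, 15.42, 15.50 and 15.39 in LV, 15.17, 15.12 and 15.08 in RV and 15.20, 15.10, 15.24 and 15.11 in LA. It was 15.55, 15.28, 15.44 and 15.46 in SA and 15.19, 15.23, 15.28 and 15.11 in PV. All 19 heart arrays thus lay between 15.08 and 15.55, and LV and RV did not overlap, nor did SA and LA.

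None of the 7 comparisons among heart regions passed the limma test for *Mybpc3* with all 23 arrays in the fit, and none had an unadjusted p under 0.05. The differences were between -0.27 for LA minus SA (95% confidence interval -1.51 to 0.97, adjusted p = 0.827, limma) and 0.33 for LV minus RV (-1.01 to 1.67, adjusted p = 0.925, limma), where 0.535% of all genes differed between LV and RV. LA minus V was -0.13 (-1.23 to 0.97). Within rows LA minus SA was -0.38 to -0.10 and LV minus RV was 0.28 to 0.38. These intervals took their width from PA, where *Mybpc3* had an SD of 2.08. Without the 4 PA arrays, an alternative chosen after seeing the data, *Mybpc3* differed over the 5 heart regions (F = 9.72, limma adjusted p = 0.00172), where 43.8% of all genes tested did. LA minus SA was -0.27 (-0.42 to -0.12) and passed the test (limma adjusted p = 0.0132, where 16.3% of genes did), and LV minus RV was 0.33 (0.17 to 0.49, limma adjusted p = 0.0554). In that fit LA minus V was -0.13 (-0.26 to 0.00, limma adjusted p = 0.116), SA minus V was 0.14 (0.01 to 0.27, limma adjusted p = 0.10) and PV minus SA was -0.23 (-0.38 to -0.08, limma adjusted p = 0.0839). The greatest of these differences, that of LV and RV, was 1.26-fold.

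**Figure D5:**
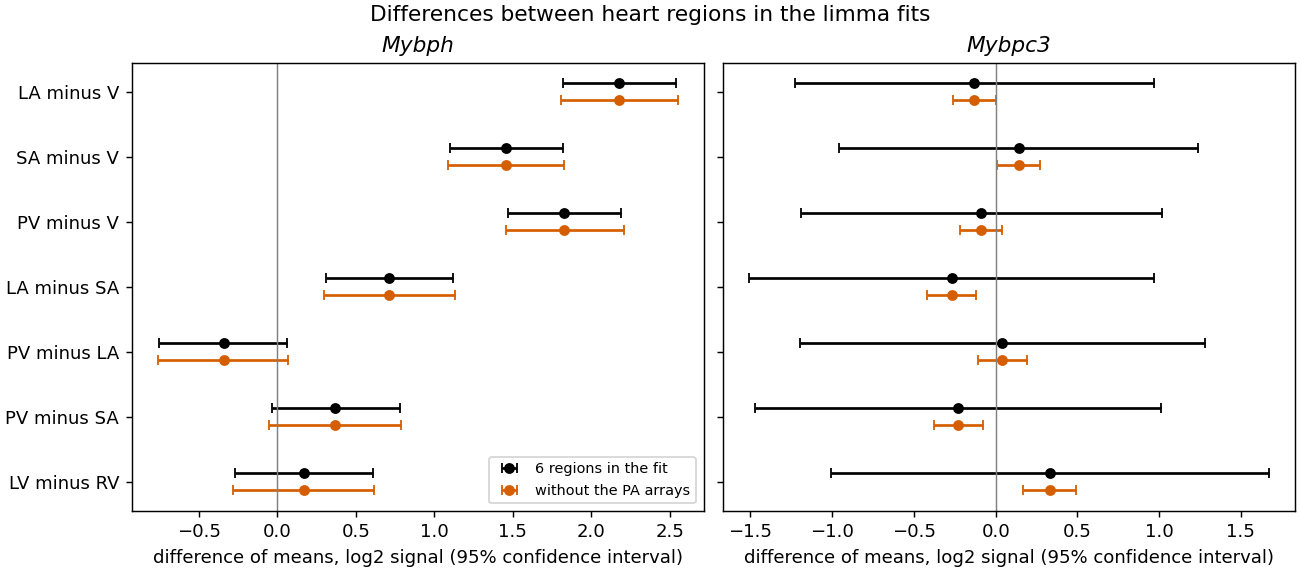
Differences between heart regions in *Mybph* and *Mybpc3*, in log2 units with 95% confidence intervals, from the limma fit of 6 regions (black) and from the fit without the 4 PA arrays (orange). *Mybph* lies 1.46 to 2.18 above V in LA, SA and PV under both fits, whereas the *Mybpc3* differences lie within 0.33 of 0 and their intervals are narrow only without PA.

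In PA *Mybpc3* was 8.61, 3.94, 7.62 and 7.76, and replicate 2 was not well above background. The difference of PA from the mean of the 5 heart regions was -8.29 (SE 0.46, 314-fold lower, limma adjusted p = 3.60e-12), with 3 of 4 PA arrays well above background. Without PA replicate 2 it was -7.28 (155-fold lower), without PA replicate 1 it was -8.84, and within rows it was -9.41 to -7.15. The same PA array was lowest for the inhibitory troponin *Tnni3*, at 8.83 against 12.62, 10.89 and 11.92. It was lowest for the ventricular light chain *Myl2* too, at 9.11 against 12.73, 12.66 and 13.28. The summed ventricular marker signal was 4160 on PA replicate 2 and 15500 to 21100 on the other PA arrays. The part of the amount of cardiac muscle in each piece was not tested.

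The specificity measure (SPM) takes a region's mean level over the root of the summed squares of the LA, V and SA means, and so sets the members on 1 scale from 0 to 1. *Mybpc3* had 0.572 in LA, 0.578 in V and 0.582 in SA, which is close to an even division. *Mybphl* had 0.677, 0.256 and 0.690, *Mybph* 0.646, 0.482 and 0.592, and *Mybpc1* 0.797, 0.378 and 0.471 in the same order. All 3 *Mybpc1* values rest on V and SA signals not well above background. With those raised to the lowest signals well above background, an alternative chosen after seeing the data, they were 0.647, 0.517 and 0.560, so the order of *Mybpc1* against the other members is not settled.

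The pattern of each gene over the 23 arrays was compared with that of 13110 genes that were well above background on every array of at least 1 region. The arrays share regions, slides and rows, so these correlations describe likeness only. *Mybphl* was most like *Sln* (Pearson r = 0.995), *Atp1b4* (0.991), the small GTPase gene *Rab15* (0.985), the proteoglycan gene *Spock2* (0.977) and *Stard10* (0.976). *Sln* was 17.85 ± 0.10 in LA, 17.52 ± 0.17 in SA and 17.34 ± 0.15 in PV (SD, n = 4 each), against 6.75 ± 0.55 in LV (SD, n = 4). *Mybpc3* was most like the muscle cytochrome oxidase subunit *Cox6a2* (0.997), *Tnni3* (0.997), the troponin *Tnnc1* (0.993), the light chain *Myl4* (0.993) and the troponin *Tnnt2* (0.992). As *Mybpc3* was within 0.47 log2 units over the heart arrays and far lower in PA, these values rest mainly on the PA arrays. *Mybpc1* had no close match, with the integrin subunit *Itgb4* first at 0.813 and *Dnajc25* (0.786) and the potassium channel subunit *Kcnmb4* (0.765) among those that followed, and 14 of its 23 values were not well above background. Among the members themselves r was 0.90 for *Mybph* and *Mybphl*, 0.69 for *Mybpc1* and *Mybphl*, 0.66 for *Mybpc1* and *Mybph*, 0.59 for *Mybpc3* and *Mybph*, 0.42 for *Mybpc3* and *Mybphl* and 0.20 for *Mybpc1* and *Mybpc3*.

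The promoters of the 3 C and H-like members that the results turn on are shown so that the most atrial gene can be read beside the heart-wide *Mybpc3* and the vein-high *Mybpc1*. They are RefSeq sequences of the GRCr8 build, 250 bases before to 50 bases after the annotated start, and 4 of the 5 genes matched the table, *Mybph* being the exception. Capitals mark matches to any of 6 motifs searched on both strands, namely the MEF2 site, the GATA motif GATAA, the T-box motif AGGTGT, the NKX2-5 motif TNAAGTG, the TEAD motif GGAATG and the TATA box TATAAA.
*Mybphl*, chr2:198693202-198693501, plus strand: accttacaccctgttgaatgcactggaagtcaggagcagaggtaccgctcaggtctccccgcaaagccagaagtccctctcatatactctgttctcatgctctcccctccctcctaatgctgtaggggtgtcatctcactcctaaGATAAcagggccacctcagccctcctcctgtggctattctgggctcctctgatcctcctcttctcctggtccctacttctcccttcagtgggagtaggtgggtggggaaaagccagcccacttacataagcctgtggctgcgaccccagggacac
*Mybpc1*, chr7:24903324-24903623, minus strand: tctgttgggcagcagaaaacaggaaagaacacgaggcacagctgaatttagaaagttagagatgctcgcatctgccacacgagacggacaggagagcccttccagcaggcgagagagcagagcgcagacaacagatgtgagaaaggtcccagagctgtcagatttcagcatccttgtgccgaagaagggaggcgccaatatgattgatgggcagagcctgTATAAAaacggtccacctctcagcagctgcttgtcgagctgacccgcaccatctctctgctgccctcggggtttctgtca
*Mybpc3*, chr3:97550811-97551110, plus strand: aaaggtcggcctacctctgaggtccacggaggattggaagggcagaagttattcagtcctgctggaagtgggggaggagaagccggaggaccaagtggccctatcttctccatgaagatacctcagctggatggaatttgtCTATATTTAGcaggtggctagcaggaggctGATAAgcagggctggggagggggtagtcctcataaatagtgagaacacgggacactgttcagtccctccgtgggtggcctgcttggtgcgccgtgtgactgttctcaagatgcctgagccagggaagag

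The *Mybphl* window held GATAA at bases -105 to -101 from the start and no other of the motifs. The *Mybpc1* window held TATAAA at -30 to -25. The *Mybpc3* window held a MEF2 match at -109 to -100, which reads as a match on both strands, and GATAA at -79 to -75. No 2 different motifs overlapped. Of 33469 promoters of the same length, 3.29% held the MEF2 motif, 26.5% GATAA and 14.2% TATAAA, while the T-box motif was in 13.6%, that of NKX2-5 in 11.5% and that of TEAD in 14.2%. A match is only a match of letters.

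The partners of these proteins in the sarcomere were read as gene lists. Of 13 thick filament and M-band genes, 9 were tested, and between LA and V 1 was higher in LA and 3 were lower, where 17.2% and 18.8% of all genes were. The higher one was *Myl7*, the atrial regulatory light chain, by 3.51 (SE 0.56, limma adjusted p = 5.64e-05). The lower ones were the ventricular light chains *Myl3*, by -4.74 (SE 0.49, limma adjusted p = 2.81e-07), and *Myl2*, by -4.63, and the myosin heavy chain *Myh7b*, by -2.50. The median of the list was -0.32, against -0.08 over all genes tested. These differences stand beside 10.39 for *Mybphl*, 2.18 for *Mybph* and -0.13 for *Mybpc3*.

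Of 21 thin filament and Z-disc genes 17 were tested, with 3 higher and 4 lower in LA than in V, where 17.2% and 18.8% of all genes were, and a median of -0.30. With quantile normalization 4 were higher and 2 lower, where 35.7% of all genes differed. The counts also rest on the PA arrays, whose spread enters the shared fit. Without them, an alternative chosen after seeing the data, 4 of the 17 were higher and 8 lower in LA than in V, and of the 9 thick filament genes 1 was higher and 5 lower, where 36.7% of all genes differed. *Tnni1*, the slow skeletal troponin I, was higher by 1.99 (SE 0.30, limma adjusted p = 2.45e-05). *Fhl2*, a LIM protein of the Z-disc and I-band, was lower (-3.50, SE 0.14, limma adjusted p = 4.64e-13), and *Acta1*, skeletal actin, likewise (-1.51, SE 0.23, limma adjusted p = 3.44e-05). Between PV and LA 5 of the 17 were higher in PV and 1 lower, where 13.7% of all genes differed and 7.13% were higher. The lower one was *Tnni1*, by -1.88 (SE 0.33, limma adjusted p = 0.000709). Among the higher ones *Tpm2*, a tropomyosin also made in smooth muscle, rose by 3.20 (SE 0.27, limma adjusted p = 3.05e-07), beside the smooth muscle list at 12.08 to 12.70 in PV and 9.44 to 9.96 in LA. Smooth muscle's part in this was not tested.

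In PA all 9 tested thick filament genes were lower than in the heart, with a median of -4.85, as were 15 of 17 thin filament and Z-disc genes, with a median of -3.75, where 28.1% of all genes were lower. Beside the -8.29 of *Mybpc3*, the furthest of the 2 lists were *Myom2*, an M-band protein, at -8.05 and *Csrp3*, a Z-disc protein, at -7.76. The exceptions were *Tpm2*, higher in PA by 5.13, and *Fhl1*, higher by 2.03.

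Of 15 genes for enzymes that phosphorylate or dephosphorylate MyBP-C 14 were tested, of which 1 was higher in LA than in V and 6 were lower, where 17.2% and 18.8% of all genes were, and the median was -0.22. *Prkd1*, protein kinase D1, was higher by 1.33 (SE 0.11, limma adjusted p = 1.14e-08) and was 7.29 ± 0.05 in LA, 7.14 ± 0.18 in SA and 7.23 ± 0.28 in PV (SD, n = 4 each) against 5.92 ± 0.09 in LV (SD, n = 4) and 6.0 ± 0.14 in RV (SD, n = 3). The lower ones included *Prkce*, protein kinase C epsilon, by -0.60, the ribosomal S6 kinase *Rps6ka1* by -0.48 and *Camk2d*, the cardiac calmodulin kinase, by -0.43. *Prkaca*, the catalytic subunit of protein kinase A, the main kinase of cardiac MyBP-C, was lower (-0.33, SE 0.07, limma adjusted p = 0.00142).

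In SA, where 28.7% of all genes differed from V, 1 thick filament gene was higher than in V and 3 were lower, 6 thin filament and Z-disc genes were higher and 2 lower, 1 kinase or phosphatase gene was higher and 4 lower, and 4 skeletal muscle genes were higher and 1 lower. In PV, where 34.6% of all genes differed from V, the counts in the same order were 1 higher and 4 lower, 4 higher and 2 lower, 1 higher and 7 lower, and 4 higher and 4 lower. The 7 lower enzyme genes became 4 with quantile normalization, where 33.8% of all genes differed, and 5 with the array row as a block, where 32.9% did. Without the PA arrays 5 thick filament and 10 thin filament and Z-disc genes were called in SA against V, where 29.4% of all genes were, and 6 and 9 in PV against V, where 35.1% were. *Prkd1* was the 1 higher enzyme gene in LA, SA and PV, by 1.33, 1.18 and 1.27, and *Myl7* the 1 higher thick filament gene, by 3.51, 3.98 and 3.77. In PA, where 60.0% of all genes differed from the heart and 28.1% were lower, 3 enzyme genes were higher than in the heart and 8 lower, and 4 skeletal muscle genes were higher and 7 lower.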

How the data were processed

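Total RNA from 23 rat tissue samples was labelled with Cy3 and scanned on 8x60K v2 arrays of Agilent's SurePrint G3 rat design. Per the file headers and labels, the authors extracted each spot's intensity with Agilent Feature Extraction 11.0.1.1, which subtracts background and detrends, and scaled it to the 90th percentile. The processed scanner intensities were used here, scaled to a common 90th percentile, and the deposited normalized intensities were an alternative (99.2% to 99.7% of values on an array were within 2% of 1 constant factor). No spot was saturated. Of 45598 probes, 158 with a missing value were left out, and 21047 of the rest were named through RefSeq accessions (16544 genes). A gene's value was its highest probe on each array, on the log2(intensity + 1) scale computed here from the deposited files. Genes above 4 on at least 1 array (15875) were fitted with limma 3.58.1 (R 4.3.3) as means of 6 regions over all 23 arrays, whereas the methods' analysis of variance was unmoderated and covered LA, SA and V alone, with Benjamini-Hochberg adjustment over all genes in each contrast at 0.05. These steps were tested on simulated data.

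*Mybpc2* was to be tested but had no matched probe. The members and gene lists were chosen with earlier results of these data known. All members were named, with the 5 genes most like *Mybphl*, *Mybpc1* and *Mybpc3*, and up to 3 called genes in each direction from each list, though some items under this rule are not reported here. *Prkaca* falls outside this rule and was chosen after its values were seen. Not well above background is the scanner's own call, and a bound used the lowest signal so called on each array. Alternatives were the percentile, quantile normalization, normexp with an offset of 50, deposited values, 2 filters, a pseudocount of 16, the choice of probe, slide, row and replicate number as blocks, fewer arrays in the fit, leaving out each array, and unmoderated analysis of variance. Intervals cover the spread between arrays, whose number limits the precision.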

Additional observations from a re-analysis of the deposited data

Results flagged for a closer look

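Of 24 combinations of a member and a group of 4 to 10 arrays, 2 held an array set apart from the rest by Dixon's criterion, which chance meets in about 1 in 20 groups. *Mybphl* was 8.76 on RV replicate 2, with the next of the 7 V arrays at 6.33, a gap of 0.767 of the range. *Mybphl* was 17.47 on PV replicate 4, with the next PV array at 17.29, a gap of 0.832 of a range of 17.25 to 17.47. Without RV replicate 2 the LV minus RV difference of *Mybphl*, taken on the brighter probe of each array, changed from -1.21 to -0.37.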

How the results depend on the processing

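Of 34 differences and tests of the 4 genes, 25 kept their side of the threshold, or moved by less than the replicate SD, under every alternative run. That SD is the gene's residual SD over all 6 regions, and for *Mybphl* it takes in the scattered PA (SD 1.84) and RV (SD 1.46) arrays. Its LV minus RV difference, at -2.03 to -0.37, and its LA minus SA difference, at -0.43 to -0.08, therefore count among the 25. The count is a loose measure for *Mybphl*. The *Mybph* LA minus SA difference, 0.71, was no longer called with only the arrays compared (0.71, limma adjusted p = 0.0890), and leaving out single arrays gave 0.57 to 0.92 (limma adjusted p = 0.00192 to 0.0553). PV minus LA in *Mybph* ranged from -0.55 to -0.20 when single arrays were left out and was called only without LA replicate 1. *Mybpc3* LA minus SA (-0.27) was called only without the PA arrays (limma adjusted p = 0.0132). The cause of these shifts was not tested, except that *Mybpc3* in PA has an SD of 2.08, which enters the shared spread. With normexp and its offset of 50, *Mybphl* LA, SA and PV minus V fell to 9.47, 9.77 and 9.91. *Mybpc1* differences shrank with normexp and the same offset, to 0.61 for LA minus V, 0.40 for LA minus SA, 2.05 for PV minus V and 1.83 for PV minus SA. With a pseudocount of 16 they shrank to 1.59 for LA minus V, 1.34 for LA minus SA, 3.42 for PV minus V and 3.18 for PV minus SA. Both settings add a constant, which compresses low signals, so the part of the background model itself cannot be told apart. Quantile normalization turned the uncalled *Mybpc3* LA minus V difference from -0.13 to 0.04. With the replicate block no call changed (*Mybph* LA minus V 2.16, limma adjusted p = 1.30e-07). Same-numbered samples did not deviate together (median r = -0.038 over 55 pairs, 11 above 0.1), so the numbers were not taken as pairs. The total of list genes called moved by over 1.5 times in 4 of 32 list contrasts with quantile normalization, 4 of 32 with row as a block and 9 of 28 without the PA arrays, and the count in 1 direction or the other in 7, 4 and 10. Signals under the lowest one well above background on an array (12.5 to 41.3) carry no order, which limits *Mybpc1* in SA, V and PA.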
